A study of Homo sapiens with 42 samples.

Results

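Cholesterol and fatty acid synthesis was followed through 29 genes in 2 acute myeloid leukaemia cell lines treated with a menin inhibitor, a MEK inhibitor or both. The genes were taken by symbol, as named enzymes and regulators of these pathways, from the 58869 gene rows of a bulk RNA-seq count table. They comprise 7 enzymes of the mevalonate pathway (ACAT2, HMGCS1, MVK, PMVK, MVD, IDI1 and FDPS) and 11 enzymes of the sterol branch (FDFT1, SQLE, LSS, CYP51A1, TM7SF2, MSMO1, NSDHL, HSD17B7, EBP, SC5D and DHCR7). A further 5 genes act in SREBP control and sterol transport (INSIG1, SREBF1, SREBF2, SCAP and STARD4), and 6 are fatty acid and lipid enzymes (FASN, ACACA, SCD, FADS1, FADS2 and LPIN1). All 29 passed the filter on low counts in each fit.

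The mevalonate pathway turns acetyl-CoA into isoprenoid units, squalene and finally cholesterol, while acetyl-CoA carboxylase, fatty acid synthase and the desaturases make saturated and unsaturated fatty acids. Transcription of most of these enzymes is driven by the SREBP transcription factors, encoded by SREBF1 and SREBF2. When sterols are scarce, SCAP escorts the SREBPs from the endoplasmic reticulum to the Golgi, where they are cut and released to the nucleus. When sterols are plentiful, INSIG1 holds SCAP back. SREBP target promoters often carry a sterol element beside a box for NF-Y, a CCAAT-binding factor that works with SREBP.

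OCI-AML3 (genotype NPM1c+) and NOMO1 (KMT2A-r, a rearranged KMT2A gene) are established lines of human myeloid leukaemia. Cells received DMSO, the solvent, for 3 or 6 days, VTP-50469 for 3 or 6 days, selumetinib alone, or both drugs for 3 or 6 days, each drug at 100 nM. VTP-50469 blocks the binding of menin to KMT2A, and selumetinib inhibits MEK, the kinase above ERK in the RAS pathway. There were 14 groups of 3 polyA RNA libraries, 42 in all. The labels spell the menin inhibitor in 2 ways (VTP-50469 and VTP-50649), and they give selumetinib alone both as a 1-day treatment and, in the titles, as day 1 for replicate 1 and day 3 for replicates 2 and 3. No 1-day DMSO group was analysed here, and the labels do not say for how long selumetinib was present in the combination. No label ties the replicates to separate cultures, so p-values measure the spread between these libraries, which may be technical.

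In OCI-AML3 each treatment was compared with DMSO of its own day, and selumetinib with DMSO day 3. In NOMO1 every treatment was compared with DMSO day 6, and the values against DMSO day 3 follow the NOMO1 results, since the sign of many of these genes turns with that choice. A gene was called where the edgeR quasi-likelihood test gave a Benjamini-Hochberg adjusted p below 0.05 over all genes tested (16384 in OCI-AML3, 16561 in NOMO1 and 18707 with both lines in 1 fit). Levels are in CPM, the counts rescaled to a common library total, with TMM scaling within a line, and changes are log2 fold changes with their standard error (SE). Summed levels of cell type markers, and the group means of COL1A1 given beside them, are CPM on library totals without TMM scaling.

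The OCI-AML3 libraries held 15561248 to 24262960 counts each, those of NOMO1 15264862 to 29168628. The share of counts on mitochondrial genes was 17.8% ± 0.208 (SD, n = 3) in NOMO1 DMSO day 3 and 12.3% ± 2.29 in the OCI-AML3 combination at day 6, against 2.53% to 6.33% as group means elsewhere. NOMO1 VTP-50469 day 3 replicate 1 and OCI-AML3 VTP-50469 day 3 replicate 2 stood apart from their group, with chi-square values per gene of 67.55 and 72.98, and of 32.06 and 30.93, against the other replicates, which differed from each other by 6.41 and 4.34. Of 8 myeloid identity genes, none was at 0 in any group. Their summed level was 1010 to 1060 CPM in OCI-AML3 DMSO day 6 (led by CEBPA) and 6260 to 6610 CPM in NOMO1 DMSO day 6 (led by MPO). Of 26 markers of other cell types, 15 and 9 were at 0 in these groups and the sums were 2.65 to 4.02 and 110 to 113 CPM. In bulk RNA, fewer cells of a type and less RNA per cell cannot be told apart.

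The promoters of these genes are rich in the NF-Y box in the RefSeq promoter table (GRCh38.p14), which gives 250 bases before and 50 after each gene start. Of the 29 genes, 25 matched the table by symbol, and ACAT2, FDFT1, SQLE and FASN were not found in it. The letters CCAAT, read on either strand and so also as ATTGG, stood in 19 of the 25 (76%), against 39.7% of 27305 genes in the table. The E-box CACGTG stood in 4 (16%, against 8.77%), which were LSS, SC5D, INSIG1 and SCAP. The sterol element TCACNCCAC stood in 1 (4%, against 1.39%), which was SREBF2. A match is a description of letters and not a site, and no match says only that these letters are not in the window. PMVK, CYP51A1, SREBF1, SCAP, FADS1 and LPIN1 held no CCAAT box.

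The 250 bases before the start are shown, 5′ to 3′ on the strand of the gene, for 6 genes whose levels the results turn on or whose windows hold the most boxes. Capitals mark the motifs: CCAAT or ATTGG in all 6, CACGTG in INSIG1 and TCACCCCAC in SREBF2. The regions are chr5:43313413-43313662 (minus strand) for HMGCS1, chr12:109573544-109573793 (plus) for MVK, chr4:165327419-165327668 (plus) for MSMO1, chrX:152830813-152831062 (plus) for NSDHL, chr7:155297628-155297877 (plus) for INSIG1 and chr22:41832855-41833104 (plus) for SREBF2.
HMGCS1: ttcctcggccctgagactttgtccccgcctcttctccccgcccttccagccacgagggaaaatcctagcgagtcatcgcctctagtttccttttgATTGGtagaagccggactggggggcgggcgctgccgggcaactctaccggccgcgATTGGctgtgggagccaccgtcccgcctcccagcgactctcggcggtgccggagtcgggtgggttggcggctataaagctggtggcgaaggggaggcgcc
MVK: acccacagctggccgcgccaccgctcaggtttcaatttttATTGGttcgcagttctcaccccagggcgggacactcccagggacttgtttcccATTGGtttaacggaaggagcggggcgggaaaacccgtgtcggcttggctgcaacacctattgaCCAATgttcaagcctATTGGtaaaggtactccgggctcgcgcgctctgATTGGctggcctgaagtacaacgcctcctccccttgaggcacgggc
MSMO1: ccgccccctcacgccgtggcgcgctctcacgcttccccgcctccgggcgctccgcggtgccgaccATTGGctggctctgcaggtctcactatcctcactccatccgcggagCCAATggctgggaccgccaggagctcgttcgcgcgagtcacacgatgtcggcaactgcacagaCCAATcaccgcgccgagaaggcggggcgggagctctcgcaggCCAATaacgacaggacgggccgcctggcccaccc
NSDHL: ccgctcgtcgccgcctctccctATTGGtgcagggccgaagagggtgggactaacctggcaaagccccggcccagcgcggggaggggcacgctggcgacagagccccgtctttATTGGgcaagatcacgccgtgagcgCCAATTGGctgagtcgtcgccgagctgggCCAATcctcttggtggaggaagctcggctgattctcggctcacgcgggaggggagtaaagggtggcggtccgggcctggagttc
INSIG1: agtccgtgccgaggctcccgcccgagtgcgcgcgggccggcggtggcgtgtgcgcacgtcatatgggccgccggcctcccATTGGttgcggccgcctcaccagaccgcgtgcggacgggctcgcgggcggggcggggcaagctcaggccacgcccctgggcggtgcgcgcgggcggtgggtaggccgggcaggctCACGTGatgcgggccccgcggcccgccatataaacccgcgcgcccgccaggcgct
SREBF2: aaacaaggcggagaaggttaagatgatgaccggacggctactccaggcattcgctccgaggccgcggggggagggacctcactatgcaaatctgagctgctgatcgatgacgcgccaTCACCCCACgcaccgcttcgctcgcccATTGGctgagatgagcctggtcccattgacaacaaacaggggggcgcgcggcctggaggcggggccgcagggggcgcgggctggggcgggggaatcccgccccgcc
MVK and NSDHL each held 5 CCAAT boxes in this window and MSMO1 held 4. In NSDHL a CCAAT and an ATTGG share 2 bases in CCAATTGG. HMGCS1, which encodes the synthase that commits acetoacetyl-CoA to the pathway, held boxes beginning 155 and 100 bases before the start. In SREBF2 the sterol element began 133 bases before the start and the CCAAT box 106 bases before it.

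With no drug, NOMO1 carried more RNA of most cholesterol enzymes than OCI-AML3 on both DMSO days. The fatty acid enzymes were mixed. FASN and ACACA had no called difference at DMSO day 6 and were lower in NOMO1 at DMSO day 3. FADS2 (log2 difference 2.06), SCD (1.78), LPIN1 (0.97) and FADS1 (0.45) were called higher in NOMO1 at DMSO day 6. At DMSO day 3 SCD (1.07) and FADS2 (0.54) were again called higher, LPIN1 (0.22) had no call and FADS1 (-1.13) was lower. In NOMO1 DMSO day 6 the highest levels per length belonged to FDFT1 (squalene synthase, 259 ± 16.5 RPKM, SD, n = 3, RPKM being the rescaled counts per kilobase of exon), SCD (stearoyl-CoA desaturase, 246 ± 35.2) and HMGCS1 (214 ± 25.7). The libraries of FDFT1 and SCD overlapped, as did those of SCD and HMGCS1, and differences between genes were not tested. Next came SQLE (squalene epoxidase, 116 ± 8.76), FASN (fatty acid synthase, 85.9 ± 4.98) and SREBF2 (81.1 ± 3.5), and the lowest were TM7SF2 (4.45), LPIN1 (5.15) and HSD17B7 (5.19). OCI-AML3 had another order. FASN (76.8 ± 3.36) and SCD (71.9 ± 3.51) led there with overlapping libraries, followed by SREBF2 (39.8 ± 0.922), FDFT1 (32.2 ± 0.351) and PMVK (phosphomevalonate kinase, 31.6 ± 3.58).

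Between the lines at DMSO day 6, edgeR called 24 of the 29 genes higher and 2 lower in NOMO1. Of all genes tested, 32.7% were called higher and 28.6% lower. The median difference was 1.85 on the log2 scale, against 0 over all genes tested. HMGCS1 stood at 208, 242 and 191 RPKM in NOMO1 and at 9.84, 9.95 and 10.3 in OCI-AML3. That is 21.3-fold higher in NOMO1 (log2 difference 4.41, SE 0.16, edgeR adjusted p = 9.01e-23). EBP, the sterol isomerase, stood at 36.2, 36.3 and 36.1 against 1.85, 1.88 and 1.80 (4.30, SE 0.15, edgeR adjusted p = 6.42e-27). ACAT2, the cytosolic acetyl-CoA acetyltransferase, differed by 4.10 (SE 0.14), CYP51A1, the lanosterol demethylase, by 3.30 (SE 0.17), and DHCR7, the last reductase of the Kandutsch-Russell route, by 3.09 (SE 0.09). For each of these the lines did not overlap in any library, as was so, in either direction, for 71.4% of all genes tested.

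SREBF1 went the other way. It stood at 8.79, 8.69 and 8.87 RPKM in NOMO1 and at 21.1, 20.4 and 21 in OCI-AML3, a difference of -1.25 (SE 0.12, edgeR adjusted p = 1.56e-11). SCAP was lower by a small margin (-0.17, SE 0.08, edgeR adjusted p = 0.0479), and it lost the call when any of 5 of the 6 DMSO libraries was left out (all but NOMO1 replicate 1, adjusted p 0.0775 to 0.15). PMVK (-0.14), FASN (0.16) and ACACA, acetyl-CoA carboxylase (0.18), did not pass. ACACA passed without NOMO1 DMSO day 6 replicate 3 (0.22, edgeR adjusted p = 0.0441).

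At DMSO day 3, a comparison added after the data were seen, edgeR called 21 of the 29 genes higher and 6 lower in NOMO1 (33.9% of all genes tested higher and 32.9% lower, median 1.20). EBP (5.91, SE 0.16), ACAT2 (3.29, SE 0.14), HMGCS1 (3.26, SE 0.15) and MSMO1 (3.20, SE 0.13) were higher as at day 6. CYP51A1 turned, at 0.975, 1.60 and 1.36 RPKM in NOMO1 and 2.40, 2.00 and 2.41 in OCI-AML3 (-0.80, SE 0.19, edgeR adjusted p = 0.000254). FASN stood at 38.8, 44.3 and 44.8 RPKM in NOMO1 against 83.9, 84.7 and 73.4 in OCI-AML3 (-0.92, SE 0.09, edgeR adjusted p = 2.47e-12). ACACA (-0.83, SE 0.09), FADS1 (-1.13, SE 0.09), SCAP (-0.85, SE 0.08) and SREBF1 (-0.42, SE 0.12) were lower too. SQLE (0.40, SE 0.10) and LSS (0.48, SE 0.12) were higher by less than at day 6.

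**Figure D1:**
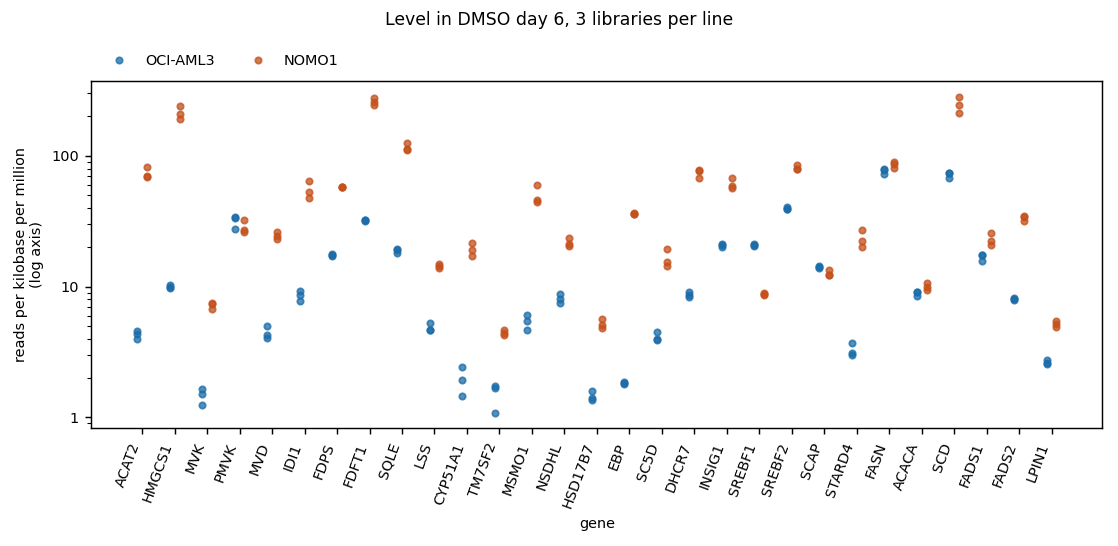
Level of the 29 genes in DMSO day 6, in RPKM on a log axis, with 1 point per library, 3 for OCI-AML3 (blue) and 3 for NOMO1 (orange). NOMO1 points lie above OCI-AML3 for most genes, HMGCS1 (at a mean of 214 in NOMO1) among them, FASN points lie close together (85.9 against 76.8), and SREBF1 is the other way around.

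In NOMO1 nearly the whole set was lower after 6 days of the menin inhibitor than in DMSO of the same day. Against DMSO day 6, edgeR called 26 of 29 genes lower after VTP-50469 for 6 days, in a comparison where 23.7% of all genes tested were higher and 25.1% lower. The median change was -1.05, against -0.01 over all genes. Summed over the set, the level was 7710, 8310 and 7120 CPM in DMSO day 6 and 3350, 3170 and 3000 CPM in VTP-50469 day 6. The sum in DMSO day 3 lay between these, at 4490, 4410 and 4470 CPM. By role, 6 of 7 mevalonate enzymes, 10 of 11 sterol branch enzymes, 4 of 5 genes of SREBP control and transport and 6 of 6 fatty acid and lipid enzymes fell. The 3 genes without a call were PMVK (-0.16), TM7SF2, a sterol reductase (-0.26), and SCAP (0.02). TM7SF2 passed without VTP-50469 day 6 replicate 3 (-0.36, edgeR adjusted p = 0.0497).

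Of the mevalonate enzymes, HMGCS1 and ACAT2 moved most. HMGCS1 stood at 867, 999 and 793 CPM in DMSO day 6 and at 154, 146 and 151 CPM in VTP-50469 day 6 (log2 change -2.56, SE 0.19, edgeR adjusted p = 1.29e-08). ACAT2 went from 266, 310 and 260 CPM to 56.8, 60.2 and 55.9 CPM (-2.27, SE 0.13, edgeR adjusted p = 5.11e-12). In both genes every treated library lay below every DMSO library. These groups were apart, in either direction, for 60.5% of all genes tested. IDI1, which isomerises isopentenyl diphosphate, fell by 1.77, FDPS, farnesyl diphosphate synthase, by 1.5, and MVK, mevalonate kinase, by 1.41 on the log2 scale.

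Along the sterol branch the falls were smaller and more even. The 10 enzymes that passed lay between -1.52 (HSD17B7, a sterol ketone reductase) and -0.81 (EBP). LSS, which cyclises squalene epoxide to lanosterol, stood at 94.9, 91.4 and 88.5 CPM in DMSO day 6 and at 36.7, 28.1 and 32.1 CPM in VTP-50469 day 6 (-1.5, SE 0.11, edgeR adjusted p = 4.73e-12). FDFT1 changed by -1.32 (SE 0.11), DHCR7 by -1.15 (SE 0.08) and SQLE by -1.03 (SE 0.10). All 3 passed.

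Among the fatty acid enzymes SCD, which puts the first double bond into stearate, changed most. Its libraries read 1160, 1330 and 1000 CPM in DMSO day 6 and 310, 296 and 285 CPM in VTP-50469 day 6 (-1.97, SE 0.09, edgeR adjusted p = 5.72e-16). FADS2, the delta-6 desaturase, went from 337, 328 and 311 CPM to 162, 154 and 148 CPM (-1.08, SE 0.13, edgeR adjusted p = 1.03e-06). The groups did not overlap for either desaturase, nor for 60.5% of all genes tested. FASN (-1.05), ACACA (-0.96), LPIN1, a phosphatidate phosphatase (-0.91), and FADS1, the delta-5 desaturase (-0.88), fell as well.

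Both SREBP genes changed less than the enzymes, PMVK and TM7SF2 apart. SREBF2 stood at 532, 565 and 524 CPM in DMSO day 6 and at 430, 391 and 374 CPM after VTP-50469 (-0.44, SE 0.07, edgeR adjusted p = 1.41e-05). SREBF1 changed by -0.33 (SE 0.09, edgeR adjusted p = 0.00353). INSIG1, itself an SREBP target, fell further, from 191, 218 and 182 CPM to 92.7, 97.1 and 84.3 CPM (-1.11, SE 0.11, edgeR adjusted p = 1.77e-08). STARD4, a cytosolic sterol carrier, changed by -0.61 (SE 0.10) and passed.

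VTP-50469 day 6 lay below VTP-50469 day 3 for most of the set, in a contrast that uses no DMSO library. The drug and days in culture cannot be told apart in it. DMSO itself went the other way for most of the set, as given below. Between VTP-50469 day 3 and day 6 edgeR called 24 genes lower (20.8% of all genes higher and 21.3% lower, median -0.55). SCD read 708, 850 and 749 CPM at day 3 and changed by -1.37 (SE 0.09, edgeR adjusted p = 1.55e-12) to day 6. HMGCS1 changed by -1.61 (SE 0.19), ACAT2 by -1.48 (SE 0.13) and LSS by -1.23 (SE 0.11), all passing. MSMO1, the sterol C4 methyl oxidase, was at -0.11 and did not pass. VTP-50469 day 3 replicate 1 lay below the other day 3 libraries for several enzymes, with HMGCS1 at 270 against 576 and 529 CPM and ACAT2 at 114 against 185 and 182 CPM. Without it, LPIN1 went from -0.38 with a call to -0.08 with none (edgeR adjusted p = 0.566), and STARD4 gained a call (-0.27, edgeR adjusted p = 0.00977).

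Selumetinib alone also went with lower levels of the set in NOMO1. Against DMSO day 6, edgeR called 23 genes lower and 2 higher (13.1% of all genes higher and 19% lower, median -0.82). Falls covered 6 of 7 mevalonate enzymes, 10 of 11 sterol branch enzymes, 2 of 5 regulators and transporters and 5 of 6 fatty acid enzymes. INSIG1 stood at 66.1, 66.3 and 73.6 CPM, below all DMSO day 6 libraries (-1.52, SE 0.12, edgeR adjusted p = 7.44e-10). HMGCS1 read 303, 342 and 332 CPM (-1.45, SE 0.19, edgeR adjusted p = 2e-05). EBP changed by -1.28 (SE 0.10), MVD, the mevalonate diphosphate decarboxylase, by -1.23 (SE 0.08) and FASN by -1.12 (SE 0.09), each with a call.

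The 2 genes called higher with selumetinib than in DMSO day 6 were TM7SF2 and SREBF1. TM7SF2 stood at 22.3, 22.6 and 19.5 CPM, against 14.1, 13.2 and 12.8 CPM in DMSO day 6 (0.68, SE 0.13, edgeR adjusted p = 0.000167). SREBF1 stood at 88.9, 83.5 and 93.9 CPM, against 62.4, 61.3 and 62.8 CPM (0.51, SE 0.09, edgeR adjusted p = 8.24e-05). Groups did not overlap for either gene, nor for 51.8% of all genes tested. PMVK (0.19), SREBF2 (0.08), SCAP (-0.10) and LPIN1 (-0.14) had no call. With DMSO day 3 as control instead, TM7SF2 was again higher (0.35, SE 0.13, edgeR adjusted p = 0.0246). SREBF1 was then lower (-0.31, SE 0.09, edgeR adjusted p = 0.00545), so the direction of SREBF1 depends on the DMSO day.

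With both drugs nearly the whole set was lower in NOMO1. At day 6, 28 of 29 genes were lower than DMSO day 6 by edgeR (27.3% of all genes higher and 28.2% lower, median -1.27, against 0 over all genes). SCAP (-0.05) alone had no call. Without combination day 6 replicate 1 or 3, or DMSO day 6 replicate 1, 2 or 3, TM7SF2 (-0.31) lost its call (edgeR adjusted p 0.0505 to 0.232), as SREBF2 (-0.21) did without combination replicate 2 or DMSO replicate 2 (0.0892 and 0.059). The summed level was 3010, 2780 and 2800 CPM, which overlapped VTP-50469 day 6. The summed genes of SREBP control and transport read 774, 719 and 728 CPM with both drugs and 724, 691 and 648 CPM with VTP-50469 alone.

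HMGCS1 reached 111, 101 and 105 CPM in the combination at day 6 (-3.07, SE 0.20, edgeR adjusted p = 1.01e-09). ACAT2 reached 42.3, 36.3 and 39.1 CPM (-2.83, SE 0.14, edgeR adjusted p = 9.28e-14), and SCD 262, 228 and 239 CPM (-2.26, SE 0.09, edgeR adjusted p = 2.19e-17). These are enzymes of both arms, sterol and fatty acid. HSD17B7 (-2.07, SE 0.17), FASN (-1.82, SE 0.09) and LSS (-1.81, SE 0.11) passed as well.

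**Figure D2:**
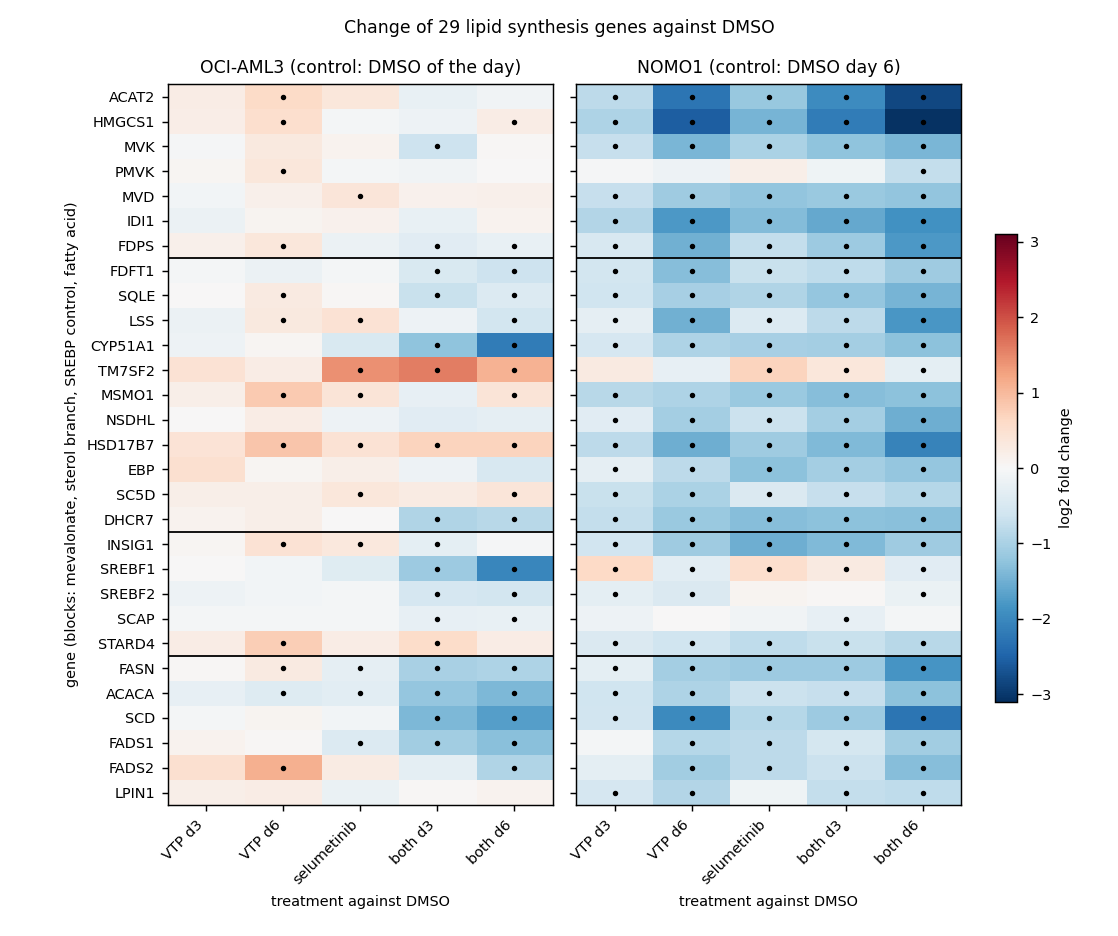
Log2 change of the 29 genes against DMSO in OCI-AML3 (left, control of the same day) and NOMO1 (right, control DMSO day 6), by treatment, blue for lower and red for higher, with a dot where the gene was called. Columns for NOMO1 are blue for nearly every gene, with the lowest median (-1.27) for the combination at day 6 (28 lower), while OCI-AML3 columns hold both colours (12 higher and 1 lower with VTP-50469 day 6, 5 higher and 14 lower with the combination day 6).

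Set directly against VTP-50469 at day 6, the combination was lower in 13 genes and higher in 1 (12.4% of all genes higher and 15.2% lower, median -0.26). FASN stood at 378, 331 and 316 CPM with VTP-50469 and at 218, 188 and 196 CPM with both drugs (-0.77, SE 0.09, edgeR adjusted p = 3.56e-07). PMVK went from 31.9, 30.2 and 24.4 CPM to 17.4, 20.8 and 20.4 CPM (-0.57, SE 0.12, edgeR adjusted p = 0.000856). Neither gene's groups overlapped, and groups were apart for 44% of all genes tested. ACAT2 (-0.55), NSDHL, a sterol decarboxylating dehydrogenase (-0.48), SQLE (-0.41) and EBP (-0.38) passed too, and FADS1 (-0.20), INSIG1 (0.00) and MVK (-0.02) did not. SREBF2 was the higher gene (0.23), and it lost the call without combination replicate 1 or 3 or VTP-50469 replicate 2 or 3 (edgeR adjusted p 0.0524 to 0.111). The count was 8 to 11 when a library was left out. It was 9 without combination replicate 2 or without any of the VTP-50469 replicates 1, 2 and 3, and 8 without combination replicate 3.

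At day 3 the same contrast gave 21 lower and 1 higher (15.9% of all genes higher and 19.2% lower, median -0.52). HMGCS1 changed by -1.21 (SE 0.19, edgeR adjusted p = 8.46e-05), ACAT2 by -1.16 (SE 0.13, edgeR adjusted p = 3.34e-07) and FASN by -0.80 (SE 0.09, edgeR adjusted p = 9.81e-08). SREBF2 was the gene that rose. Its libraries read 489, 413 and 412 CPM with VTP-50469 and 538, 559 and 566 CPM with both drugs (0.34, SE 0.07, edgeR adjusted p = 0.000577). Against DMSO day 6 the combination at day 3 had 25 genes lower and 2 higher (20.9% of all genes higher and 24.4% lower, median -1.06), and VTP-50469 day 3 had 23 lower and 1 higher (12.7% of all genes higher and 14.4% lower, median -0.53). SREBF1 was higher in both, at 117, 80.8 and 89.3 CPM with VTP-50469 (0.62, SE 0.09, edgeR adjusted p = 8.64e-06) and at 73.9, 75.1 and 76.7 CPM with both drugs (0.28). The call with both drugs was lost without combination replicate 3 or DMSO day 6 replicate 1, 2 or 3 (edgeR adjusted p 0.0523 to 0.0692), and that of TM7SF2, the other higher gene (0.35), without any library of either group (0.0514 to 0.119). From combination day 3 to day 6, 17 genes were lower and 1 higher (20.6% of all genes higher and 19.7% lower, median -0.33). SCD changed by -1.14 (SE 0.09, edgeR adjusted p = 7.58e-11). SCAP was the higher gene (0.20), and it lost the call without day 3 replicate 2 or 3 or day 6 replicate 1 or 2 (0.0718 to 0.151).

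In NOMO1 other measures moved with these groups. Summed myeloid identity genes were 6260 to 6610 CPM in DMSO day 6, 8940 to 9720 CPM in VTP-50469 day 6 and 12000 to 12900 CPM in the combination at day 6. Summed markers of other cell types were 110 to 113, 96.7 to 106 and 147 to 154 CPM in the same groups, led in the combination by the collagen gene COL1A1 (112, 107 and 105 CPM). In the combination at day 3 the myeloid sum was 15400 to 15600 CPM and the sum for other cell types 283 to 312 CPM (COL1A1 at a mean of 241). With selumetinib they were 7540 to 8330 and 178 to 201 CPM (COL1A1 at a mean of 122), and with VTP-50469 day 3 they were 6820 to 11000 and 162 to 173 CPM. Their part in the fall of the lipid genes was not tested. Of the markers of lipid-making adipocytes and hepatocytes, ADIPOQ, PLIN1 and ALB were at 0.303 CPM or less in every NOMO1 library, and APOB was at 0.

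**Figure D3:**
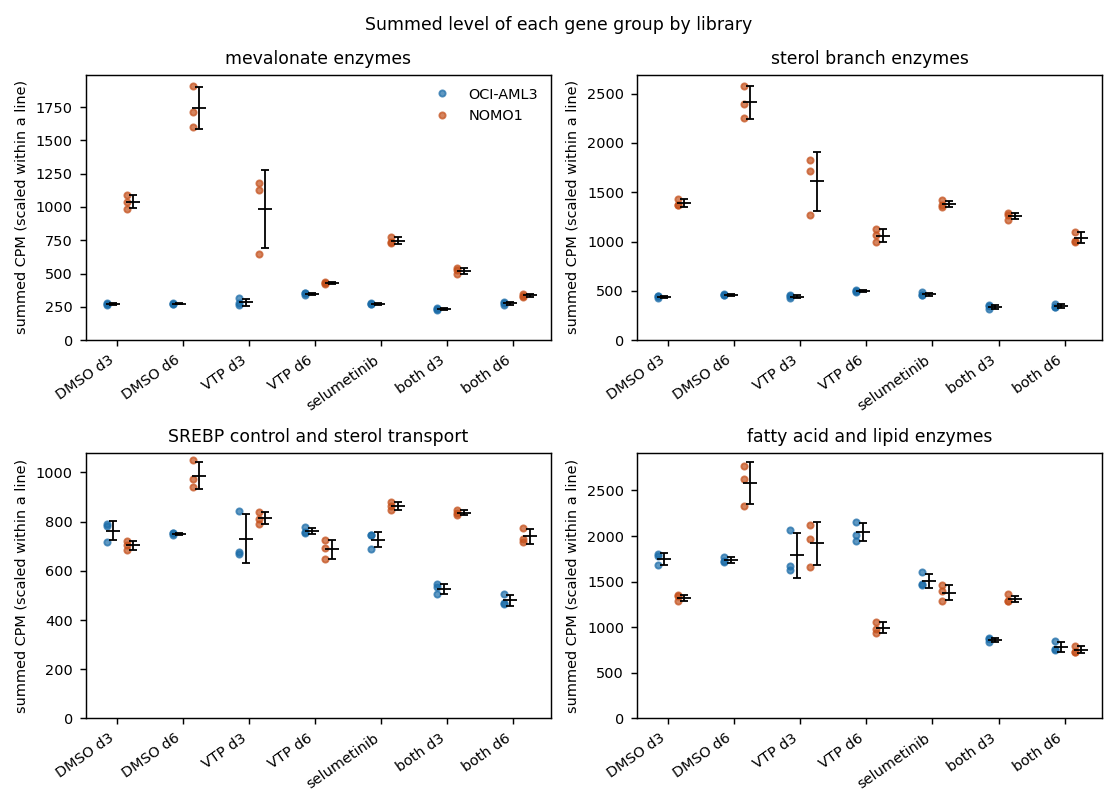
Summed CPM of each of the 4 gene groups by library (points) with group means, for OCI-AML3 and NOMO1 across the 7 groups of each line, each line scaled on its own. In NOMO1 all 4 panels drop from DMSO day 6 to the combination at day 6 (mevalonate enzymes from 1740 to 336), and in OCI-AML3 the fatty acid panel drops most with the combination (1740 to 788 at day 6).

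The choice of the DMSO day turns the sign of part of the set in the NOMO1 results at day 3 and for selumetinib. NOMO1 DMSO day 6 was higher than DMSO day 3 in 20 of the 29 genes and lower in 4 by edgeR (28.8% of all genes higher and 22.3% lower, median 0.63). CYP51A1 stood at 3.11, 5.10 and 4.35 CPM in DMSO day 3 and at 59.9, 67.9 and 54.3 CPM in DMSO day 6 (3.86, SE 0.14, edgeR adjusted p = 1.3e-17). SQLE went from 89.1, 94.5 and 81.0 CPM to 426, 477 and 418 CPM (2.32, SE 0.10, edgeR adjusted p = 5.95e-16). EBP went down instead, from 162, 171 and 164 CPM to 77.3, 76.9 and 76.7 CPM (-1.11, SE 0.09, edgeR adjusted p = 1.56e-10). Mitochondrial genes took 17.8% of counts in DMSO day 3 and 3.17% ± 0.478 in DMSO day 6. Genes with at least 1 count numbered 17749 to 18672 in the DMSO day 3 libraries and 20485 to 20584 in DMSO day 6, and the part of this in the difference was not tested. With mitochondrial genes removed the split was again 20 higher and 4 lower, and with scaling by library totals it was 24 and 2, where the median of all genes was 0.37 in place of 0.03.

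Against DMSO day 3, VTP-50469 day 3 had 11 genes higher and 6 lower (29.7% of all genes higher and 22.7% lower, median 0.12), with the sign turned in 19 of the 29. Selumetinib had 11 higher and 10 lower (28.9% of all genes higher and 25.2% lower, median -0.10), with 12 turned. The combination at day 3 had 8 higher and 14 lower (31.1% of all genes higher and 27.5% lower, median -0.15), with 11 turned. SQLE was then at 1.70, 1.39 and 1.11 in these groups in place of -0.62, -0.93 and -1.21. FADS1 was at 1.61, 0.86 and 1.14 in place of -0.06, -0.81 and -0.54. SREBF1 was at -0.20, -0.31 and -0.55 in place of 0.62, 0.51 and 0.28. EBP and HMGCS1 stood below either DMSO group with selumetinib and with the combination at day 3, at 31.4, 33.1 and 30.9 CPM and at 303, 342 and 332 CPM for selumetinib. Against DMSO day 3, HMGCS1 did not pass with selumetinib (-0.34, SE 0.18, edgeR adjusted p = 0.137) and passed with the combination (-1.06, SE 0.19). EBP passed in both. MVK, MVD, IDI1, MSMO1, DHCR7 and INSIG1 were among the genes called lower with either control in both groups. A change from DMSO day 6 in libraries of another day cannot be told apart from a change with days in culture. The day 6 results rest on DMSO of the same day, and so on its level. For SQLE, CYP51A1, FADS1, FADS2, SREBF2, SCAP and STARD4 the day 6 means of VTP-50469 and the combination lay above DMSO day 3. SQLE stood at 58 and 43.9 RPKM, against 23 in DMSO day 3. For HMGCS1, ACAT2 and SCD, among others, these means lay below DMSO day 3, HMGCS1 at 37 and 26.3 RPKM against 98.2.

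In OCI-AML3 the menin inhibitor alone left most of the set near its DMSO level and raised part of it by day 6. At day 3, edgeR called 0 of 29 genes (6.49% of all genes higher and 4.42% lower), with 6 at an unadjusted p under 0.05. DESeq2 called 1 gene. VTP-50469 day 3 replicate 2 stood apart, with FADS2 at 188 CPM against 96.8 and 89.1 CPM and STARD4 at 31.5 against 19.6 and 20 CPM. Without it ACACA (-0.32, edgeR adjusted p = 0.0312) and SREBF2 (-0.22, 0.0448) passed. FADS2 passed without replicate 1 (0.64, 0.0347) or replicate 3 (0.68, 0.00698).

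At day 6, 12 genes rose and 1 fell (18.8% of all genes higher and 16% lower, median 0.22, against 0.01 over all genes). FADS2 stood at 102, 103 and 101 CPM in DMSO day 6 and at 231, 208 and 223 CPM in VTP-50469 day 6 (1.11, SE 0.19, edgeR adjusted p = 0.000173). HSD17B7 went from 8.73, 7.37 and 7.68 CPM to 15.3, 14 and 13.7 CPM (0.85, SE 0.17, edgeR adjusted p = 0.000138), and MSMO1 from 18.3, 20.2 and 15.6 CPM to 34.4, 30.8 and 28.7 CPM (0.80, SE 0.15, edgeR adjusted p = 0.000126). Groups were apart for all 3, and for 52.1% of all genes tested. STARD4 (0.77, SE 0.15), ACAT2 (0.60, SE 0.14), HMGCS1 (0.51, SE 0.08), INSIG1 (0.46, SE 0.11) and FDPS (0.35, SE 0.08) rose as well.

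The gene that fell was ACACA, from 127, 136 and 135 CPM to 94.3, 95 and 111 CPM (-0.40, SE 0.09, edgeR adjusted p = 0.000432). Rises counted 4 of 7 mevalonate enzymes, 4 of 11 sterol branch enzymes, 2 of 5 regulators and transporters and 2 of 6 fatty acid enzymes. PMVK (0.35), FASN (0.27), SQLE (0.29) and LSS (0.30) passed too but lost the call without some libraries. These were DMSO day 6 replicate 1 (PMVK, FASN and LSS) and replicate 3 (SQLE and LSS), and VTP-50469 replicate 1 (SQLE and LSS), replicate 2 (PMVK) and replicate 3 (FASN and LSS), with edgeR adjusted p from 0.0555 to 0.142. SREBF1 (-0.09), SREBF2 (-0.08) and SCAP (-0.07) did not pass. Summed markers of other cell types were 50.9 to 79.6 CPM here, against 2.65 to 4.02 CPM in DMSO day 6, with COL1A2 at 59.9, 47.0 and 60.3 CPM, and summed myeloid identity genes were 628 to 671 against 1010 to 1060 CPM. Their part in these rises was not tested.

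From VTP-50469 day 3 to day 6, 10 genes were higher (9.8% of all genes higher and 8.65% lower, median 0.22). STARD4 (0.62), SQLE (0.38) and FADS2 (0.82) kept the call when any library was left out, FADS2 at 1.24 without day 3 replicate 2. The count was 3 without day 3 replicate 1, 4 without day 3 replicate 3 and 6 without day 6 replicate 1. OCI-AML3 DMSO day 6 and day 3 differed in 0 genes of the set and 0 of all genes tested by edgeR (percent called 0), with 1 member and 174 of all genes at an unadjusted p under 0.05, and DESeq2 called 0 members.

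With selumetinib alone 10 of the 29 genes were called in OCI-AML3, beside 4482 of all 16384 genes tested, which is not far from the share in the set. Against DMSO day 3, 7 genes were higher and 3 lower (11.7% of all genes higher and 15.6% lower, median 0.00). TM7SF2 stood at 5.13, 4.04 and 3.96 CPM in DMSO day 3 and at 10.2, 10.3 and 14.6 CPM with selumetinib (1.42, SE 0.20, edgeR adjusted p = 3.14e-06). FADS1 went from 192, 180 and 181 CPM to 148, 131 and 131 CPM (-0.43, SE 0.09, edgeR adjusted p = 0.000464). LSS (0.44) and ACACA (-0.32) passed with every library left out in turn, and FASN (-0.28) lost its call without DMSO day 3 replicate 2 (edgeR adjusted p = 0.0631). The other rises, MVD, MSMO1, HSD17B7, SC5D (the sterol C5 desaturase) and INSIG1, were 0.33 to 0.44, and all 5 lost the call without DMSO day 3 replicate 3 (edgeR adjusted p 0.0689 to 0.144). Counts were 6 without DMSO day 3 replicate 1, 2 or 3, or selumetinib replicate 2 or 3, and without DMSO day 3 replicate 3 the split was 2 higher and 4 lower.

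Together the drugs lowered the fatty acid enzymes and SREBF1 in OCI-AML3, while the sterol branch split. At day 6 the combination had 14 genes lower and 5 higher than DMSO (23.1% of all genes higher and 26.5% lower, median -0.24, against 0 over all genes). Of the fatty acid and lipid enzymes 5 of 6 fell, with a median over the 6 of -1.12, and of the 11 sterol branch enzymes 5 fell and 4 rose. The summed fatty acid enzymes stood at 1710, 1770 and 1730 CPM in DMSO day 6 and at 852, 758 and 754 CPM with both drugs.

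SCD read 454, 456 and 419 CPM in DMSO day 6 and 155, 138 and 115 CPM in the combination (-1.70, SE 0.10, edgeR adjusted p = 7.27e-14). ACACA went from 127, 136 and 135 CPM to 56.4, 50.1 and 43.9 CPM (-1.40, SE 0.09, edgeR adjusted p = 1.76e-13), and FADS1 from 205, 207 and 185 CPM to 93.4, 86.8 and 64.5 CPM (-1.29, SE 0.09, edgeR adjusted p = 1.92e-12). Every treated library lay below every DMSO library for these 3 genes. These groups were apart, in either direction, for 53.2% of all genes tested. FASN (-0.95, SE 0.08) and FADS2 (-0.93, SE 0.19) fell also, and LPIN1 (0.10) did not pass.

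SREBF1, whose protein favours the fatty acid genes, stood at 195, 188 and 194 CPM in DMSO day 6 and at 36.8, 48.3 and 56.3 CPM in the combination (-2.03, SE 0.15, edgeR adjusted p = 1.78e-09). SREBF2, whose protein favours the sterol genes, went from 343, 353 and 340 CPM to 239, 225 and 241 CPM (-0.56, SE 0.07, edgeR adjusted p = 4.64e-08). INSIG1 (-0.03) and STARD4 (0.23) had no call.

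In the sterol branch CYP51A1 stood at 6.08, 7.95 and 10 CPM in DMSO day 6 and at 2.29, 2.06 and 1.01 CPM in the combination (-2.17, SE 0.28, edgeR adjusted p = 1.34e-07). DHCR7 went from 41.2, 39.6 and 43.3 CPM to 22.1, 21.8 and 24.2 CPM (-0.87, SE 0.10, edgeR adjusted p = 3.2e-08). FDFT1 (-0.65), LSS (-0.57) and SQLE (-0.42) fell. TM7SF2 rose, from 6.84, 4.26 and 6.58 CPM to 12.9, 12.2 and 12.1 CPM (1.07, SE 0.20, edgeR adjusted p = 5.29e-05), as did HSD17B7 (0.68, SE 0.17, edgeR adjusted p = 0.00112).

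MSMO1 (0.39), SC5D (0.37) and HMGCS1 (0.24) had calls that single libraries removed. MSMO1 was at 0.12 without combination day 6 replicate 2 (edgeR adjusted p = 0.528), which read 31.0 CPM against 16.7 and 23.4, and also lost the call without combination replicate 3 or DMSO day 6 replicate 1 or 3. SC5D was at 0.19 without combination replicate 1 (0.188), which read 42.1 CPM against 28.7 and 32.0, and lost the call without DMSO day 6 replicate 1 or 3. HMGCS1 lost it without combination replicate 1 or DMSO day 6 replicate 1 or 2 (0.0581 to 0.0615). SCAP (-0.24) lost it without combination replicate 1 (0.0763). Genes with at least 1 count numbered 16742 to 17438 in the combination libraries at day 6 and 20208 to 20482 in DMSO day 6, and the part of this in the results was not tested. Mitochondrial genes took 12.3% of counts in the combination at day 6 and 3.24% ± 0.664 in DMSO day 6, and with mitochondrial genes removed the counts were again 14 lower and 5 higher.

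**Figure D4:**
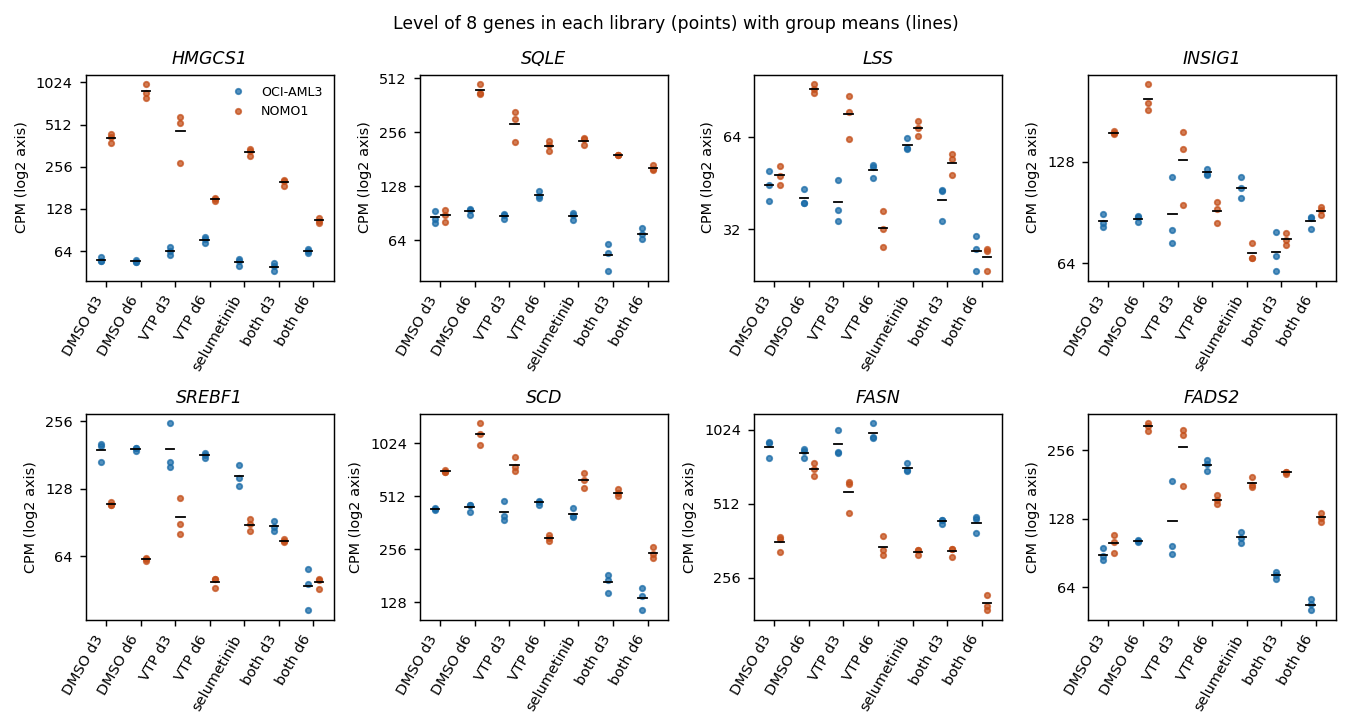
CPM (log2 axis) of HMGCS1, SQLE, LSS, INSIG1, SREBF1, SCD, FASN and FADS2 in every library (points) with group means (lines) across the 7 groups, OCI-AML3 in blue and NOMO1 in orange, each line scaled on its own. In OCI-AML3 the means of SREBF1 and SCD are lowest in the combination at day 6 (47.2 and 136, against 192 and 443 in DMSO day 6), and HMGCS1 in NOMO1 is highest in DMSO day 6 (886) and lowest in the combination at day 6 (106).

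At day 3 the OCI-AML3 combination already had 14 genes lower and 3 higher than DMSO day 3 (22.3% of all genes higher and 25.8% lower, median -0.30). SCD stood at 144, 183 and 172 CPM against 430, 437 and 436 CPM (-1.39, SE 0.10, edgeR adjusted p = 2.41e-12), and FASN at 424, 440 and 439 CPM against 902, 914 and 789 CPM (-1, SE 0.08, edgeR adjusted p = 1.74e-11). SREBF1 changed by -1.12 (SE 0.15) and passed. INSIG1 (-0.31) and SCAP (-0.25) had calls that were lost without combination day 3 replicate 1 or 3 or DMSO day 3 replicate 2 for INSIG1 and without DMSO day 3 replicate 1 for SCAP (edgeR adjusted p 0.0662 to 0.146). The 3 that rose were TM7SF2 (1.59, SE 0.20), HSD17B7 (0.69, SE 0.16) and STARD4 (0.56, SE 0.15).

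Between combination day 3 and day 6 in OCI-AML3, 5 genes were higher and 4 lower (8.44% of all genes higher and 6.59% lower, median -0.02). SREBF1 changed by a further -0.89 (SE 0.15, edgeR adjusted p = 0.000784) and CYP51A1 by -1.14 (SE 0.28, edgeR adjusted p = 0.00657), while HMGCS1 changed by 0.37 (SE 0.08, edgeR adjusted p = 0.00236). This split turned to 3 higher and 7 lower with library totals as the scaling. It also turned without combination day 3 replicate 1 (3 and 4) and without combination day 6 replicate 2 (4 and 6).

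Against VTP-50469 alone, the combination in OCI-AML3 was lower in 20 genes and higher in 1 at day 6 (16.7% of all genes higher and 24.6% lower, median -0.49). FADS2, which had risen with VTP-50469, read 53.7, 56.8 and 50.5 CPM with both drugs (-2.04, SE 0.20, edgeR adjusted p = 3.41e-07). SCD changed by -1.79 (SE 0.10), SREBF1 by -1.94 (SE 0.15), FADS1 by -1.32 (SE 0.09) and FASN by -1.22 (SE 0.08), each with a call. TM7SF2 was the gene that rose (0.85, SE 0.20, edgeR adjusted p = 0.000956). At day 3 the counts were 17 lower and 1 higher (18.2% of all genes higher and 24% lower, median -0.42), and FADS2 there was at -0.79, or -0.37 without VTP-50469 day 3 replicate 2.

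Whether the drugs together differ from the sum of their separate changes was asked at day 3 with an interaction term, the combination minus VTP-50469 day 3, less selumetinib minus DMSO. The labels leave the time on selumetinib unclear, both alone and in the combination. A departure from the sum therefore cannot be told apart from a difference in that time, in either line. In OCI-AML3 edgeR called 14 of 29 genes below 0 (2.67% of all genes higher and 6.27% lower, median -0.41, against -0.05 over all genes). These were 2 of 7 mevalonate enzymes, 4 of 11 sterol branch enzymes, 3 of 5 regulators and 5 of 6 fatty acid and lipid enzymes. SCD was changed little by either drug alone (-0.06 and -0.09) and by -1.39 with both (interaction -1.24, SE 0.13, edgeR adjusted p = 9.99e-07). DHCR7 was at 0.10 and 0.00 alone and at -0.93 with both (-1.02, SE 0.14, edgeR adjusted p = 1.88e-05).

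FASN (-0.76, SE 0.11), SQLE (-0.76, SE 0.13), FADS1 (-0.74, SE 0.13), INSIG1 (-0.71, SE 0.16), ACACA (-0.62, SE 0.12), ACAT2 (-0.81, SE 0.20) and MSMO1 (-0.85, SE 0.22) passed as well, with edgeR adjusted p from 4.15e-05 to 0.011. The calls of SREBF1 (-0.77), FADS2 (-1.04), MVK (-0.73), FDFT1 (-0.35) and SREBF2 (-0.30) were lost without some libraries. For FADS2 these were DMSO day 3 replicate 1 or 3, for SREBF1 combination replicate 1 or 2, DMSO replicate 3 or selumetinib replicate 1, and for FDFT1 combination replicate 1, DMSO replicate 2 or 3, selumetinib replicate 3 or VTP-50469 replicate 1. MVK lost the call without any library but combination replicate 1 and DMSO replicate 2, and SREBF2 without any but combination replicate 2, selumetinib replicate 2 and VTP-50469 replicates 1 and 3. FADS2 was at -0.62 without VTP-50469 day 3 replicate 2 (edgeR adjusted p = 0.000111). The count was 9 without DMSO day 3 replicate 3, and 13 with DMSO day 6 as the control.

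NOMO1 gave the opposite sign with DMSO day 6 as control, 11 genes above 0 and 2 below (7.91% of all genes higher and 5.97% lower, median 0.36). MVD (0.79, SE 0.11, edgeR adjusted p = 3.09e-05), DHCR7 (0.79, SE 0.12, edgeR adjusted p = 3.47e-05) and INSIG1 (0.73, SE 0.16, edgeR adjusted p = 0.0036) lay above 0, that is, they fell less with both drugs than the sum of the separate falls. SREBF1 (-0.86, SE 0.13, edgeR adjusted p = 5.14e-05) and TM7SF2 (-0.63, SE 0.18, edgeR adjusted p = 0.0197) lay below, and TM7SF2 lost the call without combination replicate 1, DMSO replicate 2 or 3 or selumetinib replicate 1 or 2 (0.0523 to 0.0632). With DMSO day 3 as control the count turned to 4 above and 14 below (15.3% of all genes above and 21.7% below, median -0.37), and 15 of the 29 genes had the other sign. The count was also 8 without combination day 3 replicate 2, DMSO day 6 replicate 2 or selumetinib replicate 2.

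**Figure D5:**
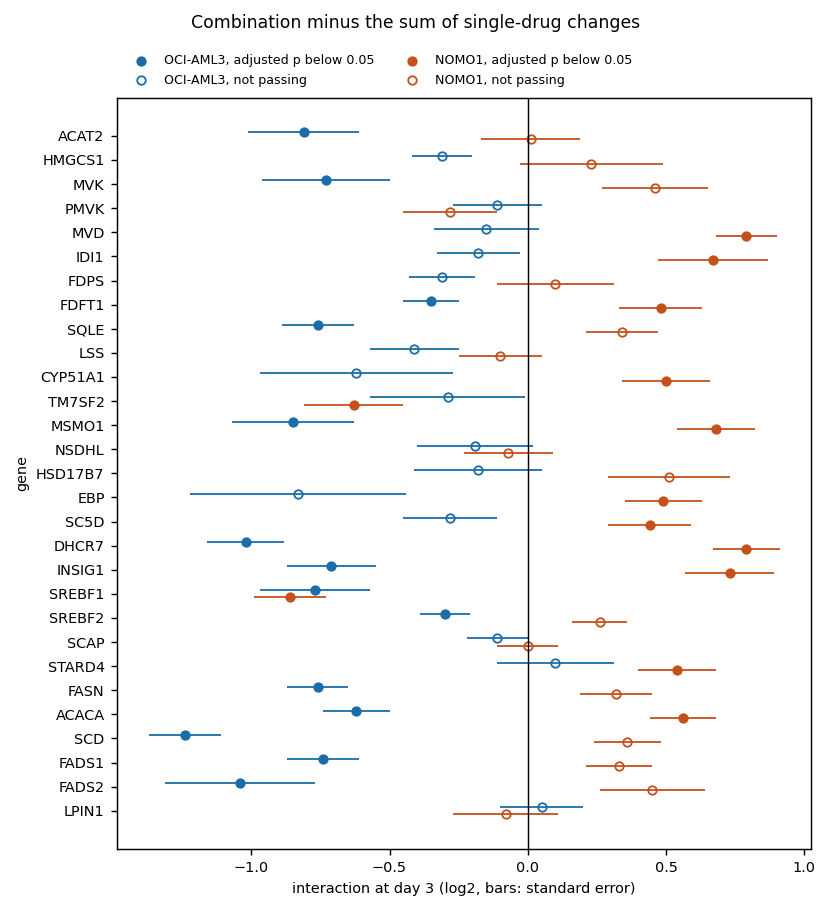
Interaction at day 3 on the log2 scale (points) with its standard error (bars) for the 29 genes, filled where called, OCI-AML3 in blue and NOMO1 in orange (control DMSO day 6). Filled OCI-AML3 points all lie left of 0, down to -1.24 for SCD, while most filled NOMO1 points lie right of 0, up to 0.79 for MVD and DHCR7.

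The responses of the lines were compared in 1 fit over all 42 libraries, each with DMSO day 6 as control. For VTP-50469 at day 6 the NOMO1 change was lower than the OCI-AML3 change in 26 genes (16.6% of all genes higher and 16.8% lower, median difference -1.26, against 0.02 over all genes). HMGCS1 differed by -3.00 (SE 0.20, edgeR adjusted p = 3.6e-14), ACAT2 by -2.80 (SE 0.19, edgeR adjusted p = 5.32e-15) and HSD17B7 by -2.31 (SE 0.23, edgeR adjusted p = 3.75e-11). These 3 fell in NOMO1 and rose in OCI-AML3. FADS2 (-2.12, SE 0.24) did the same, and SCD (-2.00, SE 0.13) fell in NOMO1 and did not pass in OCI-AML3. TM7SF2, SREBF1 and SCAP showed no called difference.

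For selumetinib alone, 20 genes had a lower change in NOMO1 and 1 a higher (4.65% of all genes higher and 4.96% lower, median -0.82), INSIG1 (-1.79, SE 0.17, edgeR adjusted p = 7.36e-10) and MSMO1 (-1.56, SE 0.18, edgeR adjusted p = 3.4e-08) among them. SREBF1 was the higher gene (0.95, SE 0.17, edgeR adjusted p = 0.000144). This comparison uses DMSO day 6, which is not the day of either selumetinib group, and it rests on that choice. With DMSO day 3 in both lines, added after the data were seen, 10 genes had a lower change in NOMO1 and 8 a higher (20.1% of all genes higher and 13.6% lower, median -0.02). EBP (-2.53, SE 0.22), MVD (-1.82, SE 0.15), MSMO1 (-1.56, SE 0.18), INSIG1 (-1.47, SE 0.17), HSD17B7 (-1.22, SE 0.23), MVK (-1.11, SE 0.20), IDI1, DHCR7 and ACAT2 were lower with either DMSO day. CYP51A1 (3.37, SE 0.25), SQLE (1.40, SE 0.14) and FADS2 (0.68, SE 0.24) turned to a higher change, and SREBF1 (0.12) lost its call.

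For the combination at day 6, 22 genes had a lower change in NOMO1 and 3 a higher (18.6% of all genes higher and 16.3% lower, median -0.97). HMGCS1 differed by -3.25 (SE 0.20) and HSD17B7 by -2.70 (SE 0.23). SREBF1 (1.74, SE 0.17, edgeR adjusted p = 1.99e-10) and SREBF2 (0.40, SE 0.10, edgeR adjusted p = 0.000917) changed further down in OCI-AML3. CYP51A1 (0.94) did too, and lost the call without OCI-AML3 combination day 6 replicate 3 (0.66, edgeR adjusted p = 0.0627). SCAP (0.26), ACACA (0.19), FADS1 (0.27) and FADS2 (-0.34) had no called difference. SCAP passed without NOMO1 combination replicate 3, NOMO1 DMSO replicate 1 or OCI-AML3 combination replicate 3 (edgeR adjusted p 0.0116 to 0.0364). FADS1 passed without NOMO1 DMSO day 6 replicate 2 (0.36, edgeR adjusted p = 0.031) or OCI-AML3 combination replicate 1 (0.38, 0.0198).

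What selumetinib added to VTP-50469 at day 6 also differed. The change from VTP-50469 to the combination was higher in NOMO1 for 12 genes and lower for 1 (11.4% of all genes higher and 9.18% lower, median 0.27). SREBF1 (1.92, SE 0.18, edgeR adjusted p = 1.85e-10), CYP51A1 (1.89, SE 0.27, edgeR adjusted p = 1.32e-06), FADS2 (1.78, SE 0.24, edgeR adjusted p = 1.64e-06), SCD (1.5, SE 0.13, edgeR adjusted p = 3.7e-11) and FADS1 (1.12, SE 0.13, edgeR adjusted p = 1.4e-08) had the largest differences. Of the 6 fatty acid and lipid enzymes 5 were among the 12. TM7SF2 was the gene with the opposite sign (-0.92, SE 0.23, edgeR adjusted p = 0.00261).

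Around the set, 53 other genes of lipid metabolism were counted, of which 50 were tested in OCI-AML3 and 51 in NOMO1. With the combination at day 6, 20 were higher and 21 lower in NOMO1 (median -0.12), where 27.3% of all genes were higher and 28.2% lower. In OCI-AML3 12 were higher and 21 lower (median -0.17), beside 23.1% and 26.5% of all genes. In NOMO1 the lower genes with the smallest adjusted p were TMEM97 (-2.65, SE 0.10), a sterol-binding protein, ACSS2 (-1.55, SE 0.08) and ACLY (-1.58, SE 0.09), which supply acetyl-CoA, and ELOVL6 (-2.04, SE 0.12), which lengthens fatty acids. The higher ones were the sterol exporters ABCA1 (5.06, SE 0.22) and ABCG1 (4.39, SE 0.49) and the lysosomal cholesterol proteins NPC2 (1.22, SE 0.09) and NPC1 (0.84, SE 0.11). Of 5 glycerolipid genes tested there, 5 rose. In OCI-AML3 the higher ones were ME1 (1.71, SE 0.10), MYLIP (1.23, SE 0.08), NPC2 (2.13, SE 0.15) and ACSS2 (1.18, SE 0.17), and the lower ones ACLY (-0.76, SE 0.06), ACSL3 (-1.19, SE 0.11), TMEM97 (-1.15, SE 0.11) and MBTPS2 (-1.04, SE 0.11).

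Some values could hold reads of a neighbouring gene, or lack reads shared with it, because exons overlap and the libraries were unstranded. Exons of CYP51A1 overlap over 79.4% of their length with AC000120.2 on the same strand, in GENCODE 29. ACAT2 overlaps SOD2 over 26.5%, SOD2-OT1 over 33.9% and TCP1 over 9.23% on the opposite strand, FDPS overlaps RUSC1-AS1 over 18.6%, HMGCS1 overlaps AC114947.2 over 15% and IDI1 overlaps IDI2-AS1 over 14.8%. FADS1 and FADS2 share 490 exonic bases on opposite strands, and SREBF1 shares 6.92% with RAI1. Reads from such stretches cannot be told apart.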

How the data were processed

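RNA of 42 libraries was measured as whole-number counts per gene, which the authors deposited as 1 table of raw counts. Per the submitters' processing notes, the tools named are FastQC 0.11.9, MultiQC 1.14, STAR 2.11a, featureCounts (Subread 2.0.6) and DESeq2 1.44.0, and the build is hg38, with their roles and order not given in the sources used here. Columns were matched to samples by name. A further 3 columns of per-sample values matched no sample and were not used. Of 58870 rows, 1 held an empty cell and was left out.

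Counts were tested in R 4.3.3 with edgeR 4.0.16 (filterByExpr, TMM scaling, robust glmQLFit, glmQLFTest) and limma 3.58.1, 1 fit per line over its 21 libraries with 7 group means, and 1 fit over all 42 libraries for differences between lines. P-values were Benjamini-Hochberg adjusted over all genes tested, with a call below 0.05. The script was tested on simulated data. RPKM values were computed from the counts on 1 scale for both lines, with exon lengths from GENCODE 29 (GRCh38), matched by Ensembl ID, which also gave the exon overlaps; the gene names of the counts come from the following GENCODE release, per the file header. The 29 genes, their groups and the other lists were chosen with earlier results of these data known. All 29 may be named, and of the other 53 lipid genes at most 4 per direction and line, by smallest adjusted p in the combination at day 6. Alternatives were DESeq2 1.42.0, RLE size factors, library totals, no filter, at least 1 CPM in 3 libraries, the replicate block, only the compared groups, mitochondrial genes removed, the other DMSO day and leaving out each library. DMSO day 3 in both lines, for the untreated lines and for selumetinib, was added after seeing the data.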

Additional observations from a re-analysis of the deposited data

Results flagged for a closer look

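Differences in response between NOMO1 and OCI-AML3 stand here because a test of the difference itself, an interaction term in 1 edgeR fit over all 42 libraries, passed for them. Each value is the log2 change in NOMO1 minus that in OCI-AML3, with DMSO day 6 as control in both lines.

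For VTP-50469 at day 6 the differences were ACAT2 -2.80, HMGCS1 -3.00, MVK -1.64, PMVK -0.44, MVD -1.20, IDI1 -1.79, FDPS -1.78, FDFT1 -1.08, SQLE -1.26, LSS -1.74, CYP51A1 -0.95, MSMO1 -1.69, NSDHL -1.20, HSD17B7 -2.31, EBP -0.80, SC5D -1.08, DHCR7 -1.27, INSIG1 -1.5, SREBF2 -0.29, STARD4 -1.31, FASN -1.26, ACACA -0.49, SCD -2.00, FADS1 -0.85, FADS2 -2.12 and LPIN1 -1.08. PMVK lost the call without NOMO1 DMSO day 6 replicate 3, NOMO1 VTP-50469 day 6 replicate 3, OCI-AML3 DMSO day 6 replicate 1 or OCI-AML3 VTP-50469 day 6 replicate 1 or 2, and SREBF2 without NOMO1 DMSO day 6 replicate 2 or NOMO1 VTP-50469 day 6 replicate 3.

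For selumetinib alone they were ACAT2 -1.36, HMGCS1 -1.39, MVK -1.16, MVD -1.52, IDI1 -1.36, FDPS -0.49, FDFT1 -0.49, SQLE -0.82, LSS -0.97, CYP51A1 -0.72, MSMO1 -1.56, HSD17B7 -1.63, EBP -0.92, SC5D -0.67, DHCR7 -1.22, INSIG1 -1.79, SREBF1 0.95, STARD4 -0.91, FASN -0.88, SCD -0.73 and FADS2 -0.84. Of these, FDPS lost the call when each of 11 of the 12 libraries compared was left out (all but NOMO1 selumetinib replicate 1), and CYP51A1 lost it for each of 9 (all but NOMO1 DMSO day 6 replicate 3, OCI-AML3 DMSO day 6 replicate 3 and OCI-AML3 selumetinib replicate 2). FADS2 lost it without OCI-AML3 selumetinib replicate 3 (adjusted p = 0.0513 by edgeR). With DMSO day 3 in both lines, CYP51A1 (3.37), SQLE (1.40) and FADS2 (0.68) turned to a higher change in NOMO1, and HMGCS1, FDPS, FDFT1, LSS, SC5D, SREBF1, STARD4, FASN and SCD had no call.

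For the combination at day 6 they were ACAT2 -2.67, HMGCS1 -3.25, MVK -1.41, PMVK -0.69, MVD -1.32, IDI1 -1.92, FDPS -1.5, FDFT1 -0.40, SQLE -0.97, LSS -1.18, CYP51A1 0.94, TM7SF2 -1.33, MSMO1 -1.60, NSDHL -1.19, HSD17B7 -2.70, EBP -0.64, SC5D -1.20, DHCR7 -0.36, INSIG1 -1.02, SREBF1 1.74, SREBF2 0.40, STARD4 -1.04, FASN -0.81, SCD -0.50 and LPIN1 -0.83. Without OCI-AML3 combination day 6 replicate 3, CYP51A1, DHCR7 and EBP lost the call. EBP also lost it without OCI-AML3 combination day 6 replicate 1, FDFT1 and DHCR7 without NOMO1 DMSO day 6 replicate 2, and DHCR7 without NOMO1 combination day 6 replicate 2.

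For the change from VTP-50469 to the combination at day 6 they were FDFT1 0.68, LSS 0.56, CYP51A1 1.89, TM7SF2 -0.92, DHCR7 0.90, INSIG1 0.48, SREBF1 1.92, SREBF2 0.69, FASN 0.44, ACACA 0.68, SCD 1.5, FADS1 1.12 and FADS2 1.78. LSS lost the call without NOMO1 VTP-50469 day 6 replicate 2 or OCI-AML3 combination day 6 replicate 1, and INSIG1 when each of 7 of the 12 libraries was left out: NOMO1 combination day 6 replicate 1, NOMO1 combination day 6 replicate 2, NOMO1 VTP-50469 day 6 replicate 3, OCI-AML3 combination day 6 replicate 1, OCI-AML3 combination day 6 replicate 2, OCI-AML3 VTP-50469 day 6 replicate 2 and OCI-AML3 VTP-50469 day 6 replicate 3.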

How the results depend on the processing

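The p-values rest on 3 libraries a group, and EBP, CYP51A1 and TM7SF2 in OCI-AML3 had the largest mean standard errors of the 29 genes. In NOMO1 the DMSO day turned part of the results at day 3 and of selumetinib, and the cause was not tested. With DMSO day 3 as control, VTP-50469 day 3 had 17 calls (11 higher, 6 lower), selumetinib 21 (11 and 10) and the interaction 18 (4 and 14). Single genes then turned sign, and those with a call under either control are listed here. Genes that turned with no call under both controls are left out. For VTP-50469 day 3 they read ACACA 0.34, ACAT2 0.12, CYP51A1 3.34, FADS1 1.61, FADS2 1.41, FASN 0.68, FDFT1 0.27, FDPS 0.14, HMGCS1 0.16, LPIN1 0.06, LSS 0.66, SC5D 0.06, SCAP 0.44, SCD 0.12, SQLE 1.70, SREBF1 -0.20, SREBF2 0.41 and STARD4 0.50. For selumetinib they read ACACA 0.30, CYP51A1 2.85, FADS1 0.86, FADS2 0.88, FDFT1 0.16, LPIN1 0.46, LSS 0.51, SC5D 0.29, SCAP 0.48, SQLE 1.39, SREBF1 -0.31 and STARD4 0.16, and for the combination at day 3 ACACA 0.24, CYP51A1 2.82, FADS1 1.14, FADS2 1.04, FDFT1 0.07, LSS 0.13, SC5D 0.04, SCAP 0.34, SQLE 1.11, SREBF1 -0.55 and STARD4 0.26. For the interaction they read ACACA -0.39, ACAT2 -0.91, CYP51A1 -3.37, FADS1 -1.34, FADS2 -1.25, FASN -0.68, FDFT1 -0.37, HMGCS1 -0.87, SC5D -0.31, SCAP -0.58, SCD -0.36, SQLE -1.98, SREBF2 -0.45 and STARD4 -0.41. With library totals as scaling, NOMO1 DMSO day 6 against day 3 turned for MSMO1 0.30 and MVD 0.07. With DMSO day 3 in both lines, chosen after seeing the data, the difference between untreated lines turned for ACACA -0.83, CYP51A1 -0.80, FADS1 -1.13 and FASN -0.92, and that in the selumetinib response for ACACA 0.67, CYP51A1 3.37, FADS1 1.34, FADS2 0.68, FASN 0.20, FDFT1 0.28, FDPS 0.13, LPIN1 0.71, LSS 0.12, SCAP 0.61 and SQLE 1.40.

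OCI-AML3 VTP-50469 day 3 went from 0 calls to 2 with DMSO day 6 as control and to 1 with DESeq2, library totals, mitochondrial genes removed, no filter, only the compared groups or RLE size factors, and to 0 to 2 with a library left out. OCI-AML3 combination day 6 against day 3 (5 higher, 4 lower) had 10 calls with library totals (3 and 7), 3 with only the compared groups (3 lower) and 7 to 10 with a library left out. OCI-AML3 VTP-50469 day 6 against day 3 had 6 calls with only the compared groups and 3 to 14 with a library left out. Leaving out a library gave 8 to 11 calls for NOMO1 combination against VTP-50469 at day 6, 8 to 18 for the NOMO1 interaction, 9 to 14 for the OCI-AML3 interaction and 6 to 9 for OCI-AML3 selumetinib, where without DMSO day 3 replicate 3 the 6 calls were 2 higher and 4 lower. The counts against DMSO of the same day moved little, at 10 to 13 and 16 to 18 for VTP-50469 and the combination at day 6 in OCI-AML3 and 26 to 27 for both in NOMO1.

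Replicate numbers are shared by the groups of a line, but same-numbered libraries did not deviate together (mean correlations -0.008 to 0.003), and 6 of 21 libraries in OCI-AML3 and 4 of 21 in NOMO1 correlated best with their own number. With the replicate block the counts were 28 for the NOMO1 combination and 26 for VTP-50469 at day 6, 19 and 12 in OCI-AML3, and 12 for the OCI-AML3 interaction.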
